A study of Homo sapiens with 4 samples.

Results

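The genes described here encode SR splicing factors: SRSF1, SRSF2, SRSF3, SRSF5, SRSF6, SRSF7, SRSF10, SRSF11, TRA2A and TRA2B. They were chosen by name, and every crosslink site labelled with one of these symbols was taken at any score. These 10 genes, of 14416 genes with a listed site, held 158 of the 158922 sites in the PDCD4 list and 113 of the 111361 sites in the IgG list. The sites come from iCLIP of wild-type MCF10A cells, a breast epithelial line that is established in culture but not transformed, in which RNA was cross-linked to protein by UV light before immunoprecipitation. The 2 replicates precipitated with PDCD4 antibody were pooled by the authors into 1 list, and the 2 replicates precipitated with isotype control IgG into another. Each site is 1 nt wide, and its score is the number of cDNAs that ended there. No value per replicate was analysed here, so there is no spread between replicates and no test between PDCD4 and IgG, and all intervals are 95% intervals that cover counting error only.

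SR proteins bind exonic enhancer sequences in pre-mRNA through RNA recognition motifs and recruit the splicing machinery through a domain rich in arginine and serine, the RS domain. Kinases of the SRPK and CLK families phosphorylate this domain, and several SR proteins also accompany spliced mRNA to the cytoplasm. Many SR genes limit their own output by splicing in a poison exon, which carries a premature stop codon and sends the transcript to nonsense-mediated decay, or by keeping an intron in the RNA. PDCD4 itself is an RNA-binding tumour suppressor protein best known for restraining translation initiation.

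The sequences around selected sites are shown first, because the results below turn on them: the highest sites of SRSF6, the genes with higher IgG values, and the sites at poison exons. Each line holds 25 nt of the GRCh38 reference on the strand of the gene, 5′ to 3′, with T for U and the crosslinked position in capitals. Where a gene had several sites of equal score, the one with most cDNAs within 3 nt was taken, except that all 3 SRSF6 sites with a score of 5 are shown.
SRSF6 3′UTR, PDCD4, chr20:43461386-43461410 (+), score 5: aggatctgctggCagggtttttttg
SRSF6 3′UTR, PDCD4, chr20:43461939-43461963 (+), score 5: gttgtctttaatGtttgtcatgtgg
SRSF6 3′UTR, IgG, chr20:43461065-43461089 (+), score 4: tcagaactccttGtttgcacattat
SRSF6 intron 2, PDCD4, chr20:43459061-43459085 (+), score 5: gggatttttggtTatgttaaatgtt
SRSF6 intron 2, PDCD4, chr20:43459128-43459152 (+), score 3: agtccttgatgtTtcaatttgaaag
SRSF3 intron 1, IgG, chr6:36594518-36594542 (+), score 7: ggaatttaacagTaccaaggagcca
SRSF5 intron 5, PDCD4, chr14:69770441-69770465 (+), score 6: gcttaacacaatTatcttgtgttaa
SRSF5 intron 5, IgG, chr14:69770444-69770468 (+), score 3: taacacaattatCttgtgttaagga
TRA2B intron 6, IgG, chr3:185920839-185920863 (-), score 6: taataaaatgtgTtttatttttaaa
SRSF7 poison exon, PDCD4, chr2:38749332-38749356 (-), score 3: aacctttcaggtTtcttcgtttgag
SRSF11 poison exon, PDCD4, chr1:70231086-70231110 (+), score 3: gttttacagttcTtttccctggttc
SRSF10 poison exon, PDCD4, chr1:23978036-23978060 (-), score 2: ggggaaaaggttGtttttcaaagtt
SRSF3 poison exon, PDCD4, chr6:36599898-36599922 (+), score 3: cagcgcgccccaTtcagcttggctg

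The PDCD4 list summed to 409308 cDNAs and the IgG list to 276139, and all comparisons use the share of each list. The epithelial label was checked with 7 keratin and adhesion genes, all of which had a listed site, whereas PTPRC, COL1A1 and PECAM1 had none. Scores were low throughout, with a mean of 2.61 in the SR genes and 2.58 over the whole PDCD4 list, and of 2.71 and 2.48 for IgG. The highest SR gene scores were 6 for PDCD4 and 7 for IgG. The lowest listed score could differ between the lists: in introns of TRA2A it was 3 for PDCD4 and 2 for IgG. Sites that failed the authors' filter add nothing to the sums, and the effect of this on the ratios was not tested. A score greater than 5, the threshold given in the methods, was reached by 1 of the 158 PDCD4 sites (0.633%) and 3 of the 113 IgG sites (2.65%), against 1.48% and 0.690% of all sites in these lists. Neighbouring sites are not independent: sites of the same list no more than 3 nt apart merged the PDCD4 sites into 121 groups and the IgG sites into 105.

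Summed over the SR genes, the shares of both lists differed by less than the counting error. They summed to 412 cDNAs in the PDCD4 list (exact Poisson interval 373 to 454), or 10.1 per 10000 cDNAs, and to 306 cDNAs in the IgG list (273 to 342), or 11.1 per 10000. The log2 ratio of the PDCD4 to the IgG share was -0.14 (-0.36 to 0.08), an interval that includes 0. Here and in all ratios between the lists, 1 cDNA was added to each sum, but the intervals were computed without it. The sum moved most without SRSF6, which gave 52 of the PDCD4 cDNAs but only 4 of the IgG cDNAs: the log2 ratio was then -0.32 (-0.54 to -0.09), an interval below 0. Leaving out any other gene gave values from -0.24 to -0.01. The lists hold no measure of RNA abundance. For the level of a gene within 1 list, more RNA and more crosslinking per RNA therefore cannot be told apart.

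The single genes went in different directions. All 10 genes reached the minimum of 20 cDNAs summed over both lists, as did 7305 genes in all. SRSF6 was the 1 SR gene at least 2-fold higher in the PDCD4 list, a call made for 16.4% of all 7305 genes. SRSF3, SRSF5 and TRA2B were the 3 genes at least 2-fold lower, a call made for 16.1% of all genes. The counting interval lay above 0 for SRSF6 only (20.1% of all genes) and below 0 for the same 3 lower genes (23.8% of all genes). The median log2 ratio was 0.02 over the SR genes and -0.10 over all genes, and 5 of the 10 SR genes lay above 0. With 10 genes, nothing particular to the group was read from these counts.

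**Figure D1:**
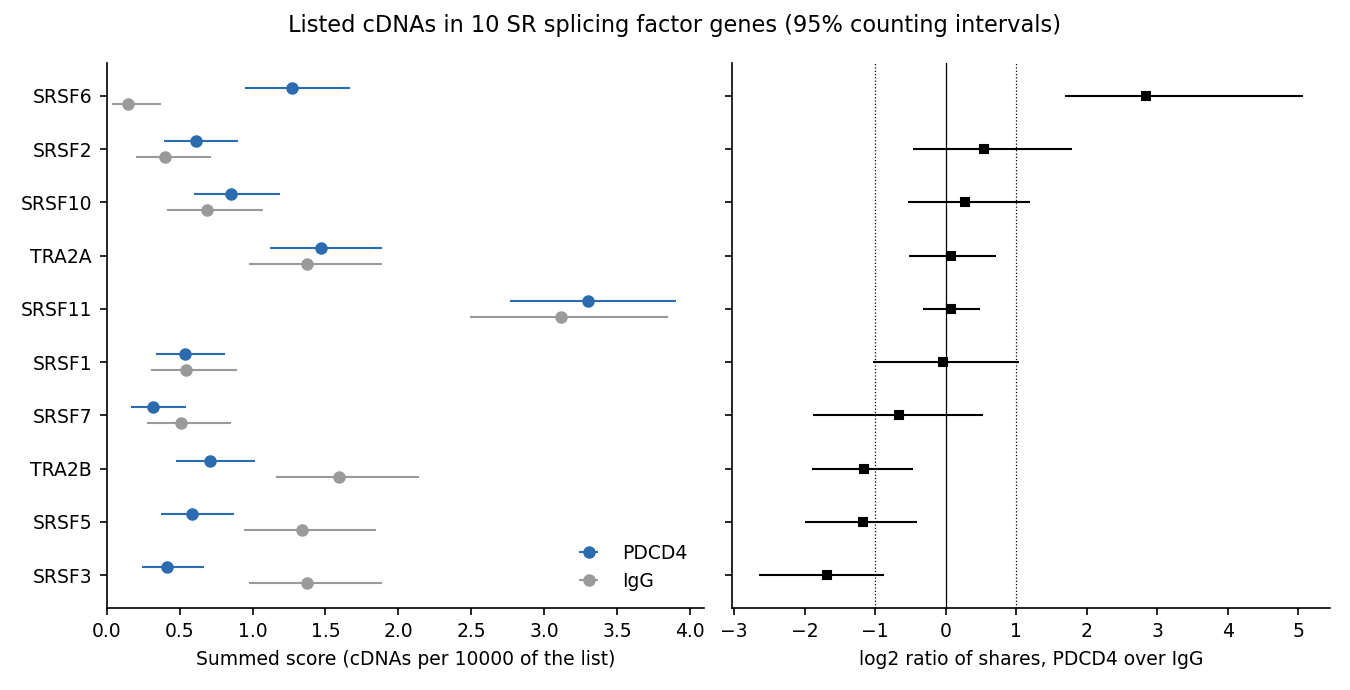
Left, summed score of each SR gene as cDNAs per 10000 of its list (blue, PDCD4; grey, IgG; bars, exact Poisson 95% intervals); right, log2 ratio of the PDCD4 to the IgG share with its 95% counting interval, dotted lines marking 2-fold. SRSF6 lies at 2.84, SRSF3, SRSF5 and TRA2B lie below -1, and the intervals of the other 6 genes include 0.

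**Figure D2:**
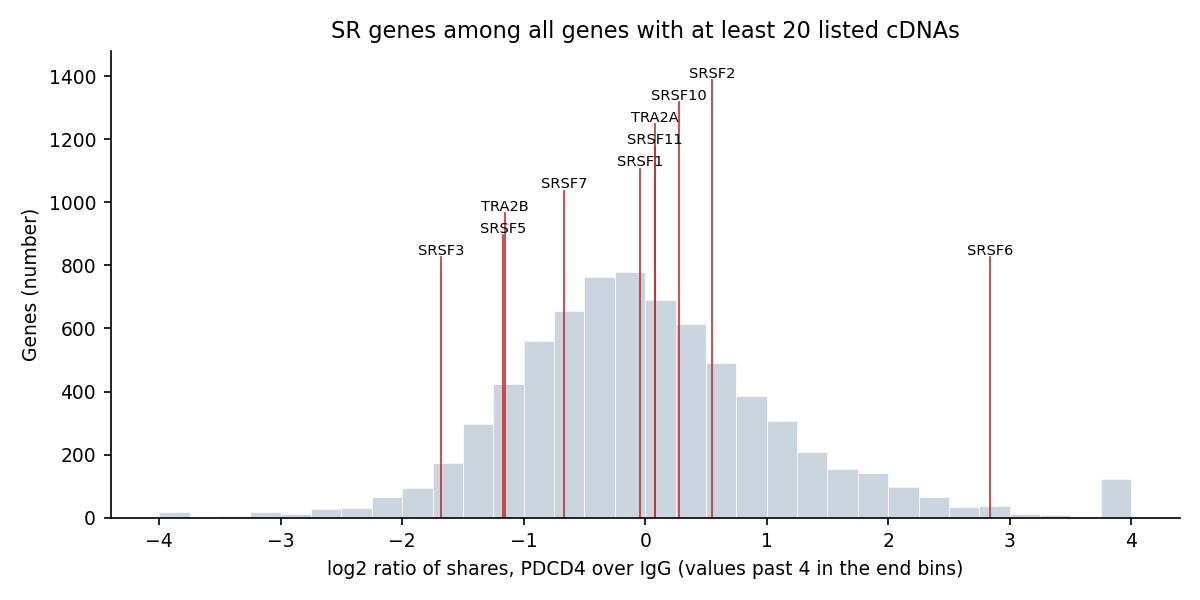
Number of genes (vertical axis) by log2 ratio of the PDCD4 to the IgG share for all 7305 genes with at least 20 cDNAs, with each SR gene marked by a red line. The SR genes spread over the distribution, from SRSF3 at -1.68 to SRSF6 at 2.84.

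SRSF6, an SR protein of the constitutive and alternative splicing machinery (chr20:43457893-43466046, plus strand), had 20 sites with 52 cDNAs in the PDCD4 list and 1 site with 4 cDNAs in the IgG list. The PDCD4 level was 1.27 cDNAs per 10000 and the IgG level 0.145 per 10000. The log2 ratio was 2.84 (1.69 to 5.06), higher than in 97.7% of all genes tested. It fell to 2.10 with 5 cDNAs added to each sum. Most of the difference lay in the 3′UTR, the last part of exon 6, which held 17 PDCD4 sites with 41 cDNAs against the single IgG site with 4, a log2 ratio of 2.50 (1.33 to 4.73). The PDCD4 sites stretched over 1707 nt of this 3′UTR, whereas the IgG site lay upstream of all of them, 277 nt before the nearest. The highest PDCD4 sites of the 3′UTR, shown above, were not at U but at a C and a G. A run of 37 U in the same 3′UTR (chr20:43461338-43461374) held 6 of the sites, with only 9 cDNAs. Without this tract, 43 PDCD4 cDNAs remained and the log2 ratio of the gene was 2.57 (1.40 to 4.80). Both intronic sites of SRSF6 were in intron 2, with 8 PDCD4 cDNAs and no IgG site listed in the intron. The nearer of them lay 13 nt upstream of the 268-nt poison exon in that intron, and the exon itself held no site in either list.

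The other direction was seen for SRSF3, SRSF5 and TRA2B. SRSF3, a small SR protein that links splicing to mRNA export (chr6:36594353-36605600, plus strand), had 7 sites with 17 cDNAs in the PDCD4 list and 12 sites with 38 cDNAs in the IgG list. Its log2 ratio was -1.68 (-2.65 to -0.87). The highest IgG site (score 7) lay in intron 1, and the highest PDCD4 site (score 4) in coding exon 6, in sequence that occurs at 2 places in the genome. Without sites in such repeated sequence, 10 PDCD4 and 32 IgG cDNAs were left and the log2 ratio was -2.15. The 3′UTR of SRSF3 held 3 PDCD4 cDNAs against 12 for IgG, with a log2 ratio of -2.27 (-5.03 to -0.68).

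SRSF5, an SR protein whose mRNA responds quickly to growth signals (chr14:69726900-69772005, plus strand), had 8 sites with 24 cDNAs in the PDCD4 list and 15 sites with 37 cDNAs in the IgG list. The log2 ratio was -1.17 (-2.00 to -0.41). The difference was mostly in introns, with 10 PDCD4 cDNAs against 21 for IgG and a log2 ratio of -1.57 (-2.89 to -0.49), and coding sequence had 7 against 4.

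TRA2B, an SR-like regulator related to Drosophila transformer 2 (chr3:185914558-185938103, minus strand), had 11 sites with 29 cDNAs in the PDCD4 list and 13 sites with 44 cDNAs in the IgG list. Its log2 ratio was -1.15 (-1.90 to -0.46), but only -0.74 when sites were counted in place of cDNAs. The intronic part was 19 PDCD4 cDNAs against 32 for IgG. Coding sequence was the exception, with 3 PDCD4 sites summing to 7 cDNAs and no IgG site.

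The other 6 genes had intervals that included 0. SRSF11, an SR-related nuclear protein (chr1:70205682-70253052, plus strand), held more sites than any other SR gene in both lists: 58 for PDCD4 (135 cDNAs) and 37 for IgG (86 cDNAs). The PDCD4 level of SRSF11 was 3.30 per 10000 and the IgG level 3.11 per 10000, a log2 ratio of 0.08 (-0.32 to 0.49). The narrow interval follows from its larger counts. Within SRSF11, coding sequence had 8 PDCD4 sites with 20 cDNAs and 1 IgG site with 3 cDNAs, and the log2 ratio there was 1.83 (0.42 to 4.56). The values were 0.19 (-0.43 to 0.86) in its 3′UTR and 0.28 (-0.38 to 1.01) in its introns, and these intervals overlap that of the coding sequence. In other protein-coding genes the log2 ratio was likewise higher in coding sequence (1.12) than in the 3′UTR (0.24) and introns (-0.38). A further 8 IgG sites with 16 cDNAs lay upstream of the representative transcript, inside a longer annotated transcript of the gene, where no PDCD4 site was listed.

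TRA2A, the paralogue of TRA2B (chr7:23504780-23532041, minus strand), had 20 sites with 60 cDNAs in the PDCD4 list and 16 sites with 38 cDNAs in the IgG list. The log2 ratio of TRA2A was 0.08 (-0.52 to 0.72). Introns of this gene gave 30 PDCD4 and 28 IgG cDNAs, a log2 ratio of -0.47 (-1.26 to 0.33), and its coding sequence 10 and 2 cDNAs, a log2 ratio of 1.31 (-0.48 to 4.98). TRA2B thus passed the 2-fold line and TRA2A did not, but the intervals of the paralogues overlap. With sites counted in place of cDNAs, neither passed it (-0.21 for TRA2A and -0.74 for TRA2B). Both had more sites in introns than in any other region in the IgG list.

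SRSF10, which represses splicing when it loses its phosphates during heat shock and mitosis (chr1:23964347-23980927, minus strand), had 14 sites with 35 cDNAs in the PDCD4 list and 6 sites with 19 cDNAs in the IgG list, a log2 ratio of 0.28 (-0.53 to 1.20). Its 3′UTR held 8 PDCD4 sites with 19 cDNAs against 1 IgG site with 3, with a log2 ratio of 1.75 (0.33 to 4.50). Its introns held 13 PDCD4 and 11 IgG cDNAs, a log2 ratio of -0.35 (-1.60 to 0.97).

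SRSF2, a classic marker of nuclear speckles (chr17:76734115-76737333, minus strand), had 9 sites with 25 cDNAs in the PDCD4 list and 4 sites with 11 cDNAs in the IgG list. The log2 ratio of SRSF2 was 0.55 (-0.46 to 1.79). SRSF1, the founding SR protein and a known oncoprotein (chr17:58000919-58007346, minus strand), had 7 sites with 22 cDNAs in the PDCD4 list and 4 sites with 15 cDNAs in the IgG list, and its log2 ratio was -0.04 (-1.03 to 1.04). The value for SRSF1 is uncertain because 4 of its PDCD4 sites and 3 of its IgG sites were also labelled with an overlapping gene, and 0.43 was obtained without them. SRSF7, which carries a zinc knuckle beside its RNA recognition motif (chr2:38743599-38751494, minus strand), had the fewest PDCD4 sites, 4 with 13 cDNAs, beside 5 in the IgG list with 14 cDNAs. The log2 ratio of SRSF7 was -0.67 (-1.88 to 0.52).

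Per length, the order of the genes was different. In exons of the representative transcript, SRSF11 had 8.84 PDCD4 sites per kb, TRA2A 6.16, SRSF2 4.77 and SRSF6 4.13, and the lowest density was 0.424 per kb in SRSF7. SRSF6 had the lowest exonic density of the 10 genes in the IgG list, 0.230 sites per kb. In the IgG list SRSF5 and SRSF11 led, with 4.68 and 4.04 exonic sites per kb. Introns held from 0 to 1.00 PDCD4 sites per kb and from 0 to 2.38 IgG sites per kb, less than the exons of the same gene except in SRSF7 for PDCD4 (0.555 per kb in introns), with SRSF6 highest in the PDCD4 list and SRSF5 in the IgG list.

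The 3′UTR held more of the SR gene sites than any other region in the PDCD4 list. By the representative transcript of each gene, 71 of the 158 PDCD4 sites were in the 3′UTR (44.9%, Wilson interval 37.4% to 52.7%), 54 in introns (34.2%, 27.2% to 41.9%), 26 in coding sequence (16.5%, 11.5% to 23.0%) and 6 in the 5′UTR (3.80%), and 1 SRSF5 site lay outside the transcript. In the IgG list, 39 of the 113 sites were in the 3′UTR (34.5%, 26.4% to 43.7%), 51 in introns (45.1%, 36.3% to 54.3%), 10 in coding sequence (8.85%, 4.88% to 15.5%) and 5 in the 5′UTR (4.42%), and 8 SRSF11 sites (7.08%) lay outside the transcript. The intervals of the lists overlapped for the 3′UTR, introns, coding sequence and the 5′UTR, but not for sites outside the transcript (0.112% to 3.50% for PDCD4 and 3.63% to 13.3% for IgG), where all IgG sites were in SRSF11. Without SRSF6, 39.1% of PDCD4 sites and 33.9% of IgG sites were in the 3′UTR.

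**Figure D3:**
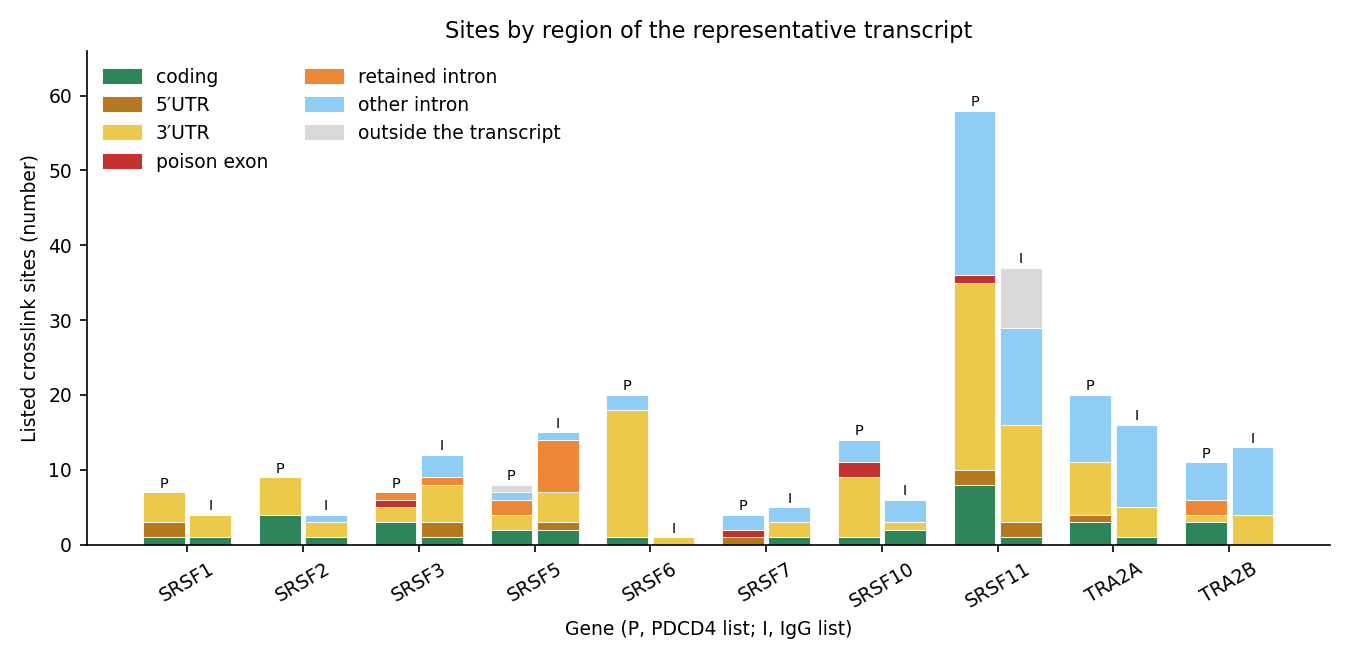
Number of listed sites in each SR gene (vertical axis) for the PDCD4 list (P) and the IgG list (I), coloured by region of the representative transcript. SRSF6 has 17 of its 20 PDCD4 sites in the 3′UTR, SRSF5 has 7 of its 15 IgG sites in a retained intron, and red poison exon segments appear only in PDCD4 bars.

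Other protein-coding genes had a different makeup, with 20.3% of PDCD4 sites in the 3′UTR, 53.7% in introns and 20.9% in coding sequence. Their IgG sites were 16.8% in the 3′UTR, 68.8% in introns and 9.69% in coding sequence. The SR intervals given above lie above the 3′UTR share and below the intron share of other genes in both lists. The SR genes are compact, however: introns make up 73.0% of the length of their representative transcripts and 94.0% in other genes, and the 3′UTR makes up 19.8% against 2.97%. Per kb of 3′UTR the SR genes had 2.59 PDCD4 sites (2.03 to 3.27) against 1.28 in other genes, and 1.42 IgG sites (1.01 to 1.95) against 0.736. Per kb of intron they had 0.536 PDCD4 sites (0.402 to 0.699) against 0.107, and 0.506 IgG sites (0.377 to 0.665) against 0.0955. Summed over the SR genes, sites were thus denser in both regions and in both lists, IgG included. This did not hold for each gene. SRSF11 gave 25 of the 71 PDCD4 3′UTR sites and 23 of the 54 intronic sites. By contrast, TRA2B had 1 PDCD4 site in its 3157 nt of 3′UTR and SRSF7 had 0 in 1534 nt. No summed density was computed without SRSF11. Whether the RNA abundance of these genes has a part in the densities was not tested.

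The same regions also gave the ratios between the lists. In coding sequence the SR genes summed to 73 PDCD4 and 30 IgG cDNAs, a log2 ratio of 0.69 (0.08 to 1.38), beside 1.12 in other protein-coding genes. Introns held 149 PDCD4 and 146 IgG cDNAs, which gave a log2 ratio of -0.54 (-0.88 to -0.20), beside -0.38 in other genes. In the 3′UTR the log2 ratio was 0.19 (-0.17 to 0.56), beside 0.24. The value of the other genes lay inside the SR interval in each of these regions. The hnRNP genes, another family of splicing regulators, had PDCD4 site shares of 33.9% for coding sequence (30.4% to 37.6%), 31.6% for the 3′UTR (28.1% to 35.3%) and 25.4% for introns (22.2% to 28.9%). Their coding interval lay above that of the SR genes and their 3′UTR interval below, but the intron intervals overlap. In the IgG list, the hnRNP shares of the 3′UTR (30.6%) and introns (46.7%) lay inside the SR intervals. The IgG coding share was 16.7% (13.2% to 20.8%), an interval that overlaps that of the SR genes.

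The 3′UTR of several SR genes is spliced in other annotated transcripts, a structure that can also trigger nonsense-mediated decay. Such alternative introns cover 33.0% of the SR 3′UTR length and held 31 of the 71 PDCD4 3′UTR sites (43.7%, 32.8% to 55.2%) and 7 of the 39 IgG sites (17.9%, 8.98% to 32.7%). SRSF6 alone gave 17 of the 31, since its whole 3′UTR lies in an intron of another transcript. Over the other genes, 14 of 54 PDCD4 sites and 6 of 38 IgG sites were in such introns, which cover 24.2% of the length there. SRSF2 had all 5 of its PDCD4 3′UTR sites in the spliced part and neither of its IgG sites.

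Poison exons and retained introns held few sites in both lists. Together they held 10 of the 158 PDCD4 sites (6.33%, 3.47% to 11.3%) and 8 of the 113 IgG sites (7.08%, 3.63% to 13.3%), against 1.80% and 1.22% in other protein-coding genes and 6.04% and 7.65% in the hnRNP genes. All 5 poison exon sites, with 12 cDNAs, were from the PDCD4 list. They lay in SRSF3 and SRSF7 (1 site and 3 cDNAs each), SRSF10 (2 adjacent sites, 3 cDNAs) and SRSF11 (1 site, 3 cDNAs). In other protein-coding genes, poison exons held 0.232% of PDCD4 and 0.173% of IgG sites, or 0.301 and 0.156 sites per kb. In SRSF7 the site was the 3rd nucleotide of a 449-nt poison exon in intron 3, and in SRSF11 it was the 4th nucleotide of a 109-nt poison exon in intron 2 (both sequences above hold the AG that ends the intron). In SRSF3 it was nucleotide 90 of a 456-nt exon in intron 3. The SRSF10 sites were nucleotides 226 and 227 of a 363-nt exon in intron 2. The IgG list held no site in a poison exon, though 2 IgG sites lay 20 and 28 nt upstream of the same SRSF11 exon. Poison exons of SRSF2, SRSF6, TRA2A and TRA2B had no site in either list. The density in poison exons was 1.67 PDCD4 sites per kb (0.543 to 3.91) and 0 for IgG (upper bound 1.24 per kb), and these intervals, which are not scaled to the size of the lists, overlap. On the scale of list shares, the counting interval of the log2 ratio for the 12 cDNAs against none began at 0.91. That interval treats each cDNA as independent, although the 12 cDNAs lay at only 5 sites, 2 of them adjacent. It is therefore too narrow, and no difference in poison exons was read from it.

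Retained introns went the other way, with 5 sites (14 cDNAs) for PDCD4 and 8 (22 cDNAs) for IgG, a log2 ratio of -1.18 (-2.30 to -0.19). Intron 5 of SRSF5 (chr14:69769252-69770466, 1215 nt) decided this direction, with 2 sites (8 cDNAs) for PDCD4 and 7 (19 cDNAs) for IgG, a log2 ratio of -1.72 (-3.22 to -0.56). Both intervals again treat each cDNA as independent and are too narrow, so no difference in retained introns was read from them. Its highest PDCD4 site, the 1 SR gene site above a score of 5 in that list, lay 3 nt from an IgG site, as the overlapping sequences above show. Without SRSF5, poison exons and retained introns held 8 of 150 PDCD4 sites (5.33%, 2.73% to 10.2%) and 1 of 98 IgG sites (1.02%, 0.180% to 5.55%). The remaining sites were in intron 4 of TRA2B (2 PDCD4 sites, 3 cDNAs) and intron 4 of SRSF3 (3 cDNAs in each list). Retained introns held 3.17% of SR gene sites in the PDCD4 list (1.36% to 7.19%) and 7.08% in the IgG list (3.63% to 13.3%), and these intervals overlap. In other protein-coding genes, they held 1.57% of PDCD4 sites and 1.05% of IgG sites.

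**Figure D4:**
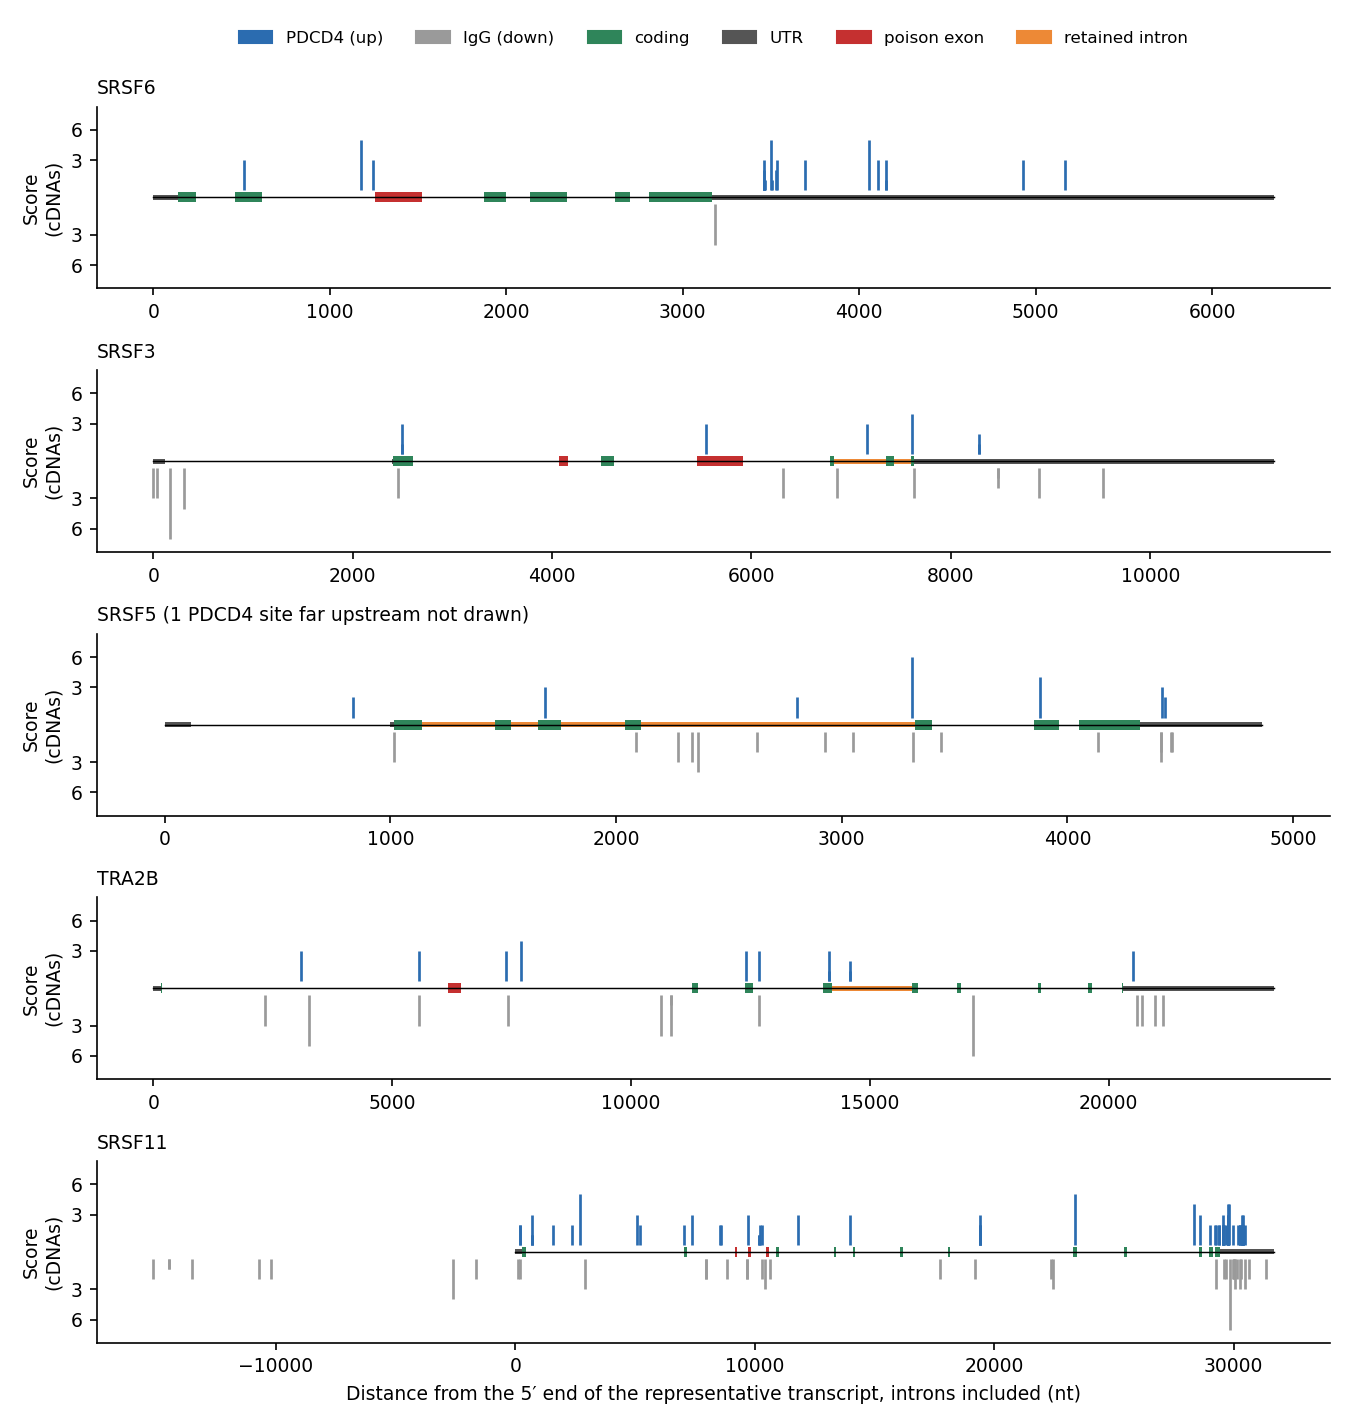
Sites of 5 SR genes by distance in nt from the 5′ end of the representative transcript, with introns included (bars up, PDCD4; bars down, IgG; bar length, score in cDNAs; boxes, coding sequence, UTR, poison exon and retained intron). SRSF6 shows PDCD4 bars along the 3′UTR with 1 IgG bar before them, SRSF5 shows 7 IgG bars over its retained intron 5, and SRSF11 shows 8 IgG sites upstream of the transcript.

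Coding sites were compared between the RS domain and the rest of the protein, since the RS domain is encoded by repetitive arginine and serine codons. Stretches in which at least 12 of 20 residues were arginine or serine took 3189 nt of the 8439 coding nt. They held 12 of the 26 PDCD4 coding sites and 3 of the 10 IgG coding sites. Site density in RS-coding over other coding sequence had a log2 ratio of 0.50 in the PDCD4 list (-0.75 to 1.72) and of -0.50 in the IgG list (-3.09 to 1.63). A difference was not detectable at these numbers. All 4 PDCD4 coding sites of SRSF2 were in RS-coding sequence, against 2 of the 8 in SRSF11.

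Part of the exonic sequence carried almost no sites. Of 39 exonic sites in exons followed by an intron, 1 lay in the last 60 nt of its exon, an IgG site of SRSF5 22 nt from the end, and the next was 63 nt away, with 13 sites at 60 to 79 nt. The share within the last 60 nt was 0 of 26 for PDCD4 (Wilson interval up to 12.9%) and 1 of 13 for IgG, beside 4.84% and 7.07% in other protein-coding genes. SR coding exons are affected by this, because 60.6% of their coding nt lie farther than 60 nt from such an end, against 67.4% in other genes. In TRA2B the part is 47.4% and in SRSF2 it is 83.0%. Whether the alignment of the reads has a part in this gap was not tested.

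**Figure D5:**
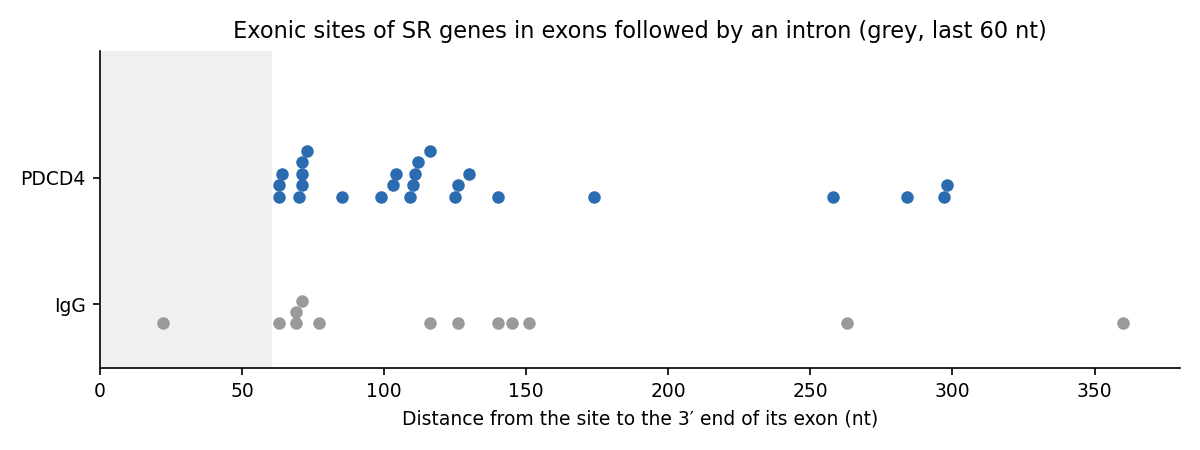
Distance in nt from each exonic site to the 3′ end of its exon, for exons followed by an intron, in the PDCD4 list (blue) and the IgG list (grey); the shaded band is the last 60 nt. A single IgG site lies in the band, and sites begin again at 63 nt.

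The crosslinked nucleotide was U at 55.7% of PDCD4 sites (47.9% to 63.2%) and 59.3% of IgG sites (50.1% to 67.9%) in the SR genes, compared with 46.8% and 51.6% in other protein-coding genes. The mean U content of the 21 nt around the site was 43.2% for PDCD4 and 40.8% for IgG, against 33.0% and 35.9% in other genes. By these means, sites of both lists in the SR genes lay in sequence richer in U, but the means have no interval. For the crosslinked nucleotide, the IgG interval includes the value of other genes. Adjacent PDCD4 sites in U runs of SRSF6 and SRSF11 were each counted, which raises the PDCD4 values. The larger share of SR gene sites in the 3′UTR stood beside the higher U content. Its part in the U content was not tested.

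No SR gene position was listed in both files, which shared 721 positions over all genes. Nevertheless, 10 of the 158 PDCD4 sites (6.33%, 3.47% to 11.3%) lay within 3 nt of an IgG site, against 2.22% in other protein-coding genes. From the other side, 10 of the 113 IgG sites (8.85%, 4.88% to 15.5%) lay within 3 nt of a PDCD4 site, against 2.80%. In both lists these sites were only in SRSF5, SRSF11 and TRA2A, most of them in SRSF11. The absence of shared SR gene positions cannot be told apart from an effect of the removal of IgG sites given above. The effect of that removal on neighbouring positions was not tested either. The 30 nt after the site occurred more than once in the genome for 14 PDCD4 sites and 9 IgG sites.

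The wider SR pathway was read from 29 further genes, all of which had a site. Of these, 24 reached 20 cDNAs, with a median log2 ratio of 0.21, and 4 were at least 2-fold higher and 2 at least 2-fold lower in the PDCD4 list. The highest was BCLAF1, an RS-rich protein of mRNA processing, at 1.82 (1.13 to 2.72), and the lowest was RNPS1, a component of the exon junction complex, at -1.39 (-2.40 to -0.50). SRSF9, the nearest relative of SRSF1, was at 1.05 (0.17 to 2.20). Among 20 hnRNP genes with enough cDNAs, the median was 0.15, with 2 at least 2-fold higher and 1 at least 2-fold lower. Neither set is described further, and no difference between the sets was tested.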

How the data were processed

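The authors processed the iCLIP reads with iCount on the Ensembl release 88 genome (GRCh38) and deposited 1 list of crosslink sites for each immunoprecipitation, with the replicates pooled. Sites also seen with IgG were removed from the PDCD4 replicates before peak calling. As deposited, scores are counts of cDNAs at single nucleotides without normalization, and sites that failed the authors' 5% false discovery rate filter are left out. The aligner and its settings are not given in the sources used here. The score filter of the methods (greater than 5) is not applied in the lists and was used as an alternative.

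Sites were assigned to the SR genes by exact symbol in the label, and a site with several labels counted for each gene. The members and gene lists were chosen with earlier results of these data known. All 10 SR genes, their highest sites, poison exons and retained introns were described, BCLAF1 and RNPS1 as the extremes of the pathway list, and SRSF9 was added after its value was seen. Regions came from GENCODE release 44, by the representative transcript, with coding sequence first, then 3′UTR, 5′UTR and intron (MANE Select where tagged). A poison exon is an exon of a transcript annotated for nonsense-mediated decay that touches no representative exon, and a retained intron is spanned whole by an exon of a retained_intron transcript. Ratios of shares had a pseudocount of 1 and Clopper-Pearson counting intervals, shares had Wilson intervals and sums and densities exact Poisson intervals. Alternatives were score thresholds, shared positions, several labels, repeated sequence (the 30 nt after a site), numbers of sites, mitochondrial sites, a pseudocount of 5, minimums of 50 and none, all transcripts, summed scores and the definition of RS-coding sequence. Leaving out SRSF6, SRSF11 or the U tract of SRSF6 was chosen after seeing the data. The ratios and intervals were tested on simulated data. Python 3.11.15, numpy 2.4.6, scipy 1.17.1, numba 0.67.0 and matplotlib 3.10.9 were used.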

Additional observations from a re-analysis of the deposited data

How the results depend on the processing

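Of 69 alternative values, 57 kept their call or stayed within counting error, 12 did not, and none reversed. With only scores greater than 5, 4 SR gene sites were left: the summed log2 ratio was -3.54, 0 genes passed 2-fold in either direction because none reached 20 cDNAs, introns held 100% of PDCD4 and 66.7% of IgG sites, poison exons or retained introns held 100% and 0%, and no coding site was left for the RS comparison. Counting sites in place of cDNAs left 1 gene at least 2-fold lower, since SRSF3 fell under the minimum and TRA2B was at -0.74. With all transcripts, 20.9% of PDCD4 and 28.3% of IgG sites lay in no annotated exon of the gene. These include the 1 SRSF5 and 8 SRSF11 sites outside the representative transcript. A further 13.9% and 23.9% were in a representative intron that is exonic in another transcript. No paired analysis was possible because each list pools its replicates, and no replicate could be left out for the same reason. With scores this low, depth limits every statement on single exons and introns.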
